A study of Mus musculus with 696 samples.

Results

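Among 696 single keratinocytes of mouse tail skin, 90 cells were chosen by a score of 6 genes of the upper hair follicle duct: Krt79, Cst6, Klk7, Klk10, Cdsn and Rptn. The score was the mean z value of log2(CPM + 1), where CPM is the count of a gene as a rate of the cell's total count, and the members were the 90 cells with the highest score. Because these values picked the cells, the levels of the 6 genes, and every difference in level between the members and the other 606 cells, are given as descriptions with no test. Only changes between time points were tested, in the members and against the change in the other cells. The cells came from female Lrig1-EGFP-ires-CreERT2 mice carrying Rosa26-fl/STOP/fl-tdTomato on a CBA C57BL/6 mixed background, in which hydroxytamoxifen applied once to young adult skin marks Lrig1-expressing cells and all their progeny, here called Lrig1 GL cells. All groups share these alleles and this treatment. The 4 groups were unwounded skin (0w), 1 week after a first full-thickness tail wound (1w), 8 weeks after it (8w) and 1 week after a second wound on the healed site (9w), and sorted tdTomato+ cells came from a zone holding both the wound bed and distal hair follicles. The 2 plates of each group, replicate 1 and replicate 2, are the samples. Each experiment rested on several animals, and the labels do not tie plates to animals, so p-values measure only the spread between plates, which may be technical. The titles carry a letter shared by both plates of a time point, so whatever it stands for cannot be told apart from time.

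The upper hair follicle opens onto the skin surface through the infundibulum and joins the sebaceous gland through its duct. Its innermost cells are differentiated keratinocytes that line the canal, and Krt79 is the keratin that marks them from the time the canal first forms. Lining cells build a cornified surface much as the epidermis does: desmosomes are assembled, corneodesmosin (Cdsn) is laid over them, and kallikrein proteases such as Klk7 cut it so that dead cells can be shed. Cst6 (cystatin M/E) inhibits the cysteine proteases of cornification, and Rptn (repetin) is a protein of the cornified envelope. Gata6 is a transcription factor of the sebaceous duct lineage, and Lrig1 marks stem cells of the junctional zone below.

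The score fell without a gap. The highest score was 4.11, the 45th was 1.06 and the last member had 0.578. The first cell outside had 0.576, followed by 0.575, 0.569 and 0.567, while the last cells inside had 0.608, 0.598, 0.591 and 0.587. Within 0.1 of the threshold lay 14 members and 23 other cells, so the members are the upper end of a range and not a separated type. All 6 genes had a count in 13 members, 5 genes in 22, 4 genes in 32 and 3 genes in 23. Among the other cells, 77 had a count of 3 of the genes, 6 of 4 and 1 of 5.

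The genes that chose the cells were unequal in reach. Krt79 (chr15:101929332-101940324, minus strand) had a count in 97.8% of members and 45.2% of other cells, with a median of 11712 CPM in members. Cst6 (chr19:5344705-5349574, minus strand) had a count in every member and in 65.7% of the others, and its median in members was 49226 CPM. Klk7 (chr7:43811294-43816359, plus strand) was detected in 94.4% of members against 13.9%, with a median of 782 CPM. The rest marked fewer cells. Klk10 (chr7:43781035-43785410, plus strand), another kallikrein, had a count in 58.9% of members and 8.09% of other cells. Cdsn (chr17:35552128-35557180, plus strand) had one in 60% against 3.63%. Rptn (chr3:93393699-93399442, plus strand) was found in 15 members and 4 other cells. Coordinates are those of GRCm38, the build of the authors' processing.

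The duct genes that the rule did not use stood high in the same cells. Gata6 had a count in 78 of 90 members (86.7%) and 26.9% of other cells. After every cell was thinned to 20000 counts, which left out 6 members and 45 other cells, these shares were 66.7% and 19.3%. Krt17, a keratin of hair follicle epithelium, was found in 98.9% of members against 62.2%. Plet1, a surface protein of the upper follicle, was found in 93.3% against 45.4%. The defensin genes Defb6 and Defb1 were found in 95.6% and 83.3% of members, against 44.7% and 30.4% of other cells. Lrig1 itself had a count in 77.8% of members and 40.3% of the others. Prdm1, a repressor found in terminally differentiating cells, was in 38.9% against 6.77%. Of these 7 genes, 5 had a higher mean CPM in members than in the other cells of the plate on all 8 plates, and Lrig1 and Prdm1 on 7. Over all genes of the table, 2.76% were higher on all 8 plates. Postn, which the study uses as a marker of the infundibulum, went the other way: it had a count in 10% of members and 45% of other cells and was lower in members on all 8 plates. The cells thus carry Krt79 and Gata6 with little Postn, and the name duct cells is used here only for cells that meet the rule.

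Promoters of the genes that chose the cells are shown because Gata6 is detected in most members and its family binds a short motif. The windows are RefSeq promoters on GRCm38.p6, 250 bases before to 50 after the annotated start, and match 5 of the 6 genes. Capitals mark the GATA motif on either strand, searched as AGATAA and as AGATAG, and also with T as its first letter as TGATAA and as TGATAG.
Krt79, chr15:101940275-101940574, minus strand: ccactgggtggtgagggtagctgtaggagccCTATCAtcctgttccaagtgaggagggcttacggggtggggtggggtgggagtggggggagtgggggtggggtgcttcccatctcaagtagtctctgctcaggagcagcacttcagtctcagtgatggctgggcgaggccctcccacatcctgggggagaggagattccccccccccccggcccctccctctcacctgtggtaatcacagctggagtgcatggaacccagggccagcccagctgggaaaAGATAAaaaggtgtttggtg
Klk7, chr7:43811044-43811343, plus strand: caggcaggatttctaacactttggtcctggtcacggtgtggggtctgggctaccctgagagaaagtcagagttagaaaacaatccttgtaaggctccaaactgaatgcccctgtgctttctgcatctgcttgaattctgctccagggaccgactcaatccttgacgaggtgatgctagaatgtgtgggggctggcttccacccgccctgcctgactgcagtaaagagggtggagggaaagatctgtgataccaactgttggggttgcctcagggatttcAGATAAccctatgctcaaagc
Krt79 held the motif at -219 and at 30 and Klk7 at 29, counting the start base as 0. Klk10, Cdsn and Rptn had no such letters in their windows. A GATA motif was present in 29.8% of 32851 windows of this length. Of the 20 leading genes described next, 17 had at least 1 window, and 9 of these held the motif. The AP-1 motif (TGAGTCA on either strand) was in 6 of the 17 and in 5.2% of all windows, and Sprr1a and Cldn4 had 2 matches each. A gene with several windows has more chances to match, and a match describes letters, not binding.

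**Figure D1:**
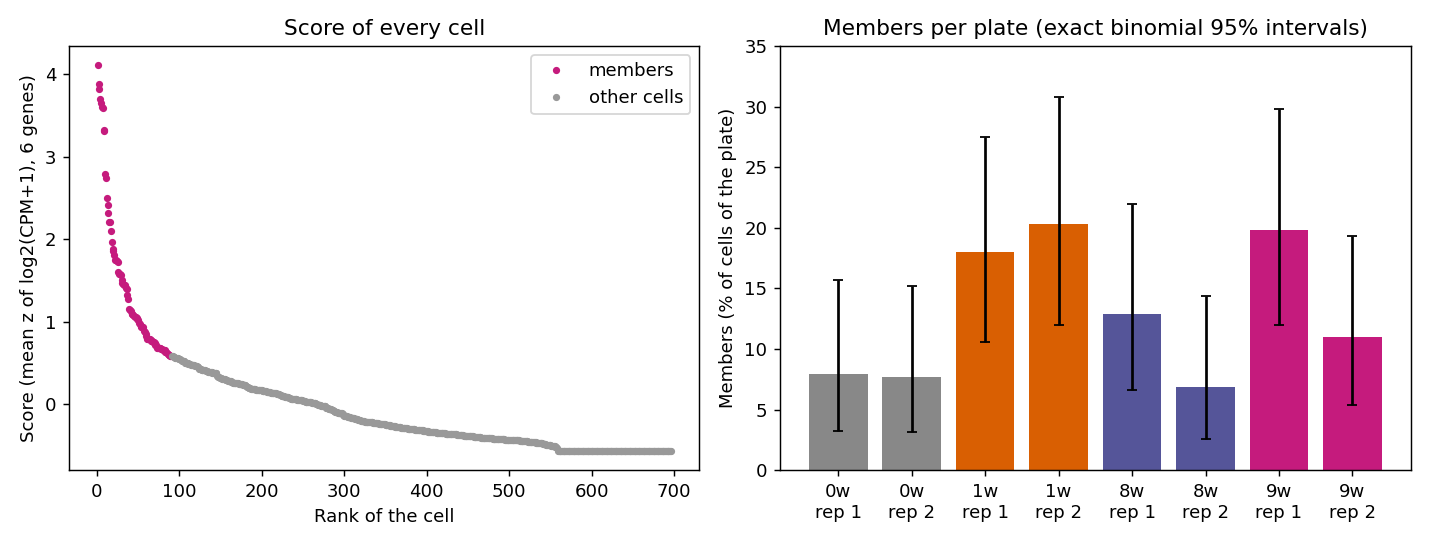
Left, the score of each of the 696 cells by rank, with the 90 members in colour and the others in grey. Right, members as a percentage of the cells of each plate with exact binomial 95% intervals, from 6.9% on 8w replicate 2 to 20.3% on 1w replicate 2.

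Outside the rule, the leading genes of the members were taken by a fixed ratio within plates. The 20 genes with the highest median ratio over the plates were higher in members on all 8 plates, among 2497 genes with a mean of at least 50 CPM and a count in at least 50% of members. Slc46a2, a solute carrier, had the highest ratio, with a median log2 difference of 6.40 that ranged from 2.28 to 9.40 between plates. It was detected in 71.1% of members and 3.8% of the other cells, and in 58.3% of members after thinning. Calhm5, a member of the calcium homeostasis modulator family, followed at 5.24, and Sprr1a, a cornified envelope precursor, at 5.23. The median level of Sprr1a was 2475 CPM in members and 0 in other cells. Ivl, the envelope precursor involucrin, had a difference of 3.16.

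The other leading genes had varied roles. Cldn4, a claudin of tight junctions, was in 72.2% of members and 5.28% of other cells. Gsdma, a pore-forming gasdermin of skin, was in 81.1% against 10.6%. Pla2g2f, a secreted phospholipase of the epidermis, had a log2 difference of 3.34, Cyp2b19, a keratinocyte cytochrome, of 3.43, and Rdh1, a retinol dehydrogenase, of 3.59. Krt77, a keratin also known from sweat ducts, was in 53.3% of members and 3.8% of the other cells. Rarres1, Bace2, Eps8l1, Psapl1, Slc6a14, Teddm3, Ly6g6c, Defb1, Tspan6 and Perm1 completed the list with median log2 differences from 3.14 to 5.14. Psapl1 and Ly6g6c reached nearly every member, at 97.8% and 98.9%.

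Of the 10 genes lowest in members, Krt15, Krt5, Col17a1 and Itgb1 were on the basal layer list and Mt2, Cd24a, Fam162a, Slc6a6, Cav1 and Gja1 were not. Krt15 had a median log2 difference of -6.47 and a count in 12.2% of members against 52% of others. Krt5, the basal keratin, was in 22.2% against 64.4%, Col17a1, a hemidesmosome collagen, in 18.9% against 73.8%, and Itgb1, an integrin of the basal surface, in 12.2% against 56.9%. Of these 10 genes, 6 were lower in members on all 8 plates, while Krt15, Mt2, Fam162a and Itgb1 were higher on 1 plate. Krt14 did not share this pattern: it was found in 87.8% of members and 89.3% of the others.

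**Figure D2:**
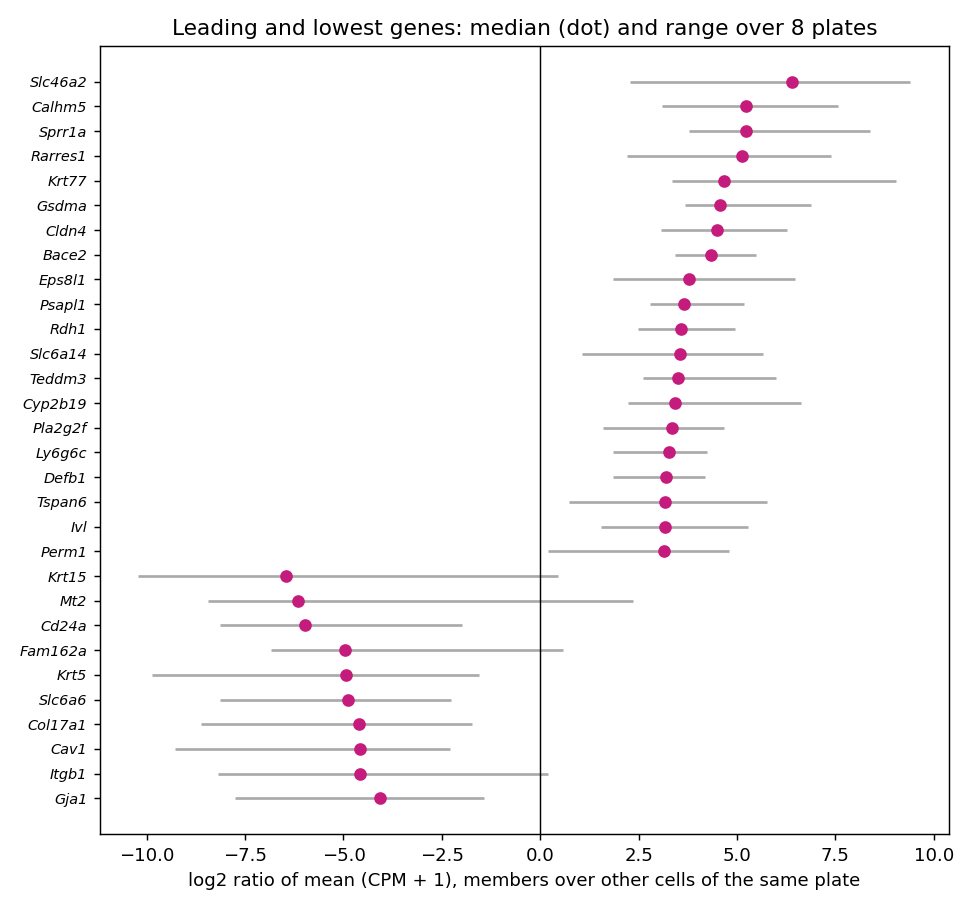
The log2 ratio of mean CPM (pseudocount 1), members over other cells of the same plate, for the 20 leading and 10 lowest genes; dots are medians and lines the range over 8 plates. All 20 leading genes lie above 0 over the whole range, with Slc46a2 at a median of 6.40.

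Lists of epidermal differentiation genes were read next. Over all genes of the table, 2.76% were higher and 9.9% lower in members on all 8 plates. Of 21 cornified envelope genes, 6 were higher on all 8 plates and 0 lower, and the summed level had a median of 3416 CPM per member against 195 CPM in other cells. Sprr1a alone, named above, had a median of 2475 CPM in members, while Tgm3, a transglutaminase, and Sprr1b had median log2 differences of -2.78 and -1.13. Within that list, Lor (loricrin) was in 11.1% of members against 2.15%, Flg (filaggrin) in 8.89% against 3.47% and Hrnr (hornerin) in 8.89% against 0.825%. Asprv1 reached 42.2% of members against 3.96%, Casp14 33.3% against 16.5% and Cnfn 27.8% against 3.96%. The median of Flg was 0 CPM in members, 1 cell reached 36352 CPM, and members were higher on 6 of the 8 plates. Of 12 kallikreins and inhibitors, 4 were higher on all 8 plates, and the list's median log2 difference was 0.13. Klk5, which activates other kallikreins, was in 76.7% of members against 17.2%, Klk6 in 44.4% against 2.31%, Klk11 in 67.8% against 17.8%, and Spink5, the inhibitor that restrains them, in 98.9% against 45.4%. Klk13 and Klk14 had a median log2 difference of 0.00, and Slpi, a secreted protease inhibitor, of -1.01. Of 16 barrier lipid genes, 5 were higher on all 8 plates and 0 lower. Among the 5, Abca12, the lipid transporter of lamellar granules, was in 83.3% of members against 42.2%. Elovl4, which makes very long fatty acids, was in 87.8% against 30.4%. Fa2h and Abhd5, of the same list, had median log2 differences of -3.18 and -0.27.

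Junction genes were mixed. Of 9 tight junction genes, 4 were higher on all 8 plates, and of 12 desmosome genes 3, among them Dsp (desmoplakin) and Dsg1a, a desmoglein of upper layers. The median log2 difference of the desmosome list was 0.31, and Dsc3, a desmocollin, and Dsg2, a desmoglein, were at -0.70 and -2.28. Of 20 epidermal transcription factors, 8 were higher on all 8 plates and 2 lower, beside 2.76% and 9.9% of all genes. The number lower was thus near the share over all genes. Klf4, a factor of barrier formation, was in 98.9% of members against 73.9%, whereas Trp63, the factor of basal identity, was in 57.8% against 90.1% and lower on every plate. Of 11 basal layer genes, 7 were lower on all 8 plates, against 9.9% of all genes. Spinous keratins split: Krt10 was in 97.8% of members and Krt1 in 33.3%, and Krt1 was lower in members than in other cells on all 8 plates.

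Markers of other cells were read as summed lists. The summed immune and fibroblast markers had a median of 0 CPM in members, and at most 422 and 188 CPM in a single member. Of the endothelial markers, Pecam1 was in 97.8% of members and 98.8% of other cells alike, while Kdr was in 2 members and Vwf in 10. Of 4 melanocyte markers, Mitf, a transcription factor of melanocytes, was in 46.7% of members against 16.5% and higher on all 8 plates, while Dct, Pmel and Tyr had a count in 8, 8 and 4 members. The sum of the melanocyte list had a median of 7.48 CPM in members and 0 in other cells. The sum of the sebaceous gland list had a median of 328 CPM in members and 421 CPM in other cells. Dgat2 was in 73.3% of members and 43.6% of other cells, Mgst1 in 70% against 75.7% and Fasn in 64.4% against 62%. Mgst1 and Fasn had a lower mean CPM in members on all 8 plates. What part these cells or genes have in the results was not tested. Of 13 sebaceous gland genes none was higher and 5 were lower on all 8 plates.

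Members with and without Cdsn, itself a gene of the score, differed in other genes. The 54 members with a Cdsn count had a median of 148133 counts and the 36 without had 173871. Whether depth had a part in these differences was not tested. Those with Cdsn had more Slc46a2, found in 46 of 54 against 18 of 36, more Asprv1, a protease that processes filaggrin (32 against 6 cells), and more Cldn4 (45 against 20). Spink5 had a median of 2266 CPM in cells with Cdsn and 741 CPM without, Sprr1a 4013 against 1226, and Plet1 680 against 198. All 8 members with Flg had Cdsn. The 36 members without Cdsn more often had Scd1 and Scd2, desaturases of lipid synthesis: Scd1 was in 25 of 36 against 19 of 54, and Scd2 in 30 against 21. Clca3a2 and Rnase4 were likewise more often found without Cdsn. Gata6 had medians of 74.1 and 57 CPM with and without Cdsn. Since Cdsn entered the score, a member without it reached the threshold through the other genes of the rule, and these values are a description.

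Across the 90 members, Spearman's rho was 0.45 between Cdsn and Sprr1a, 0.40 between Krt79 and Krt17 and -0.08 between Krt79 and Krt10. Among pairs of rule genes it was 0.55 for Cdsn with Rptn, 0.49 for Cdsn with Klk10 and 0.25 for Cst6 with Krt79. It was 0.20 for Cst6 with Klk7, -0.01 for Klk7 with Krt79 and -0.14 for Krt79 with Cdsn. The rule genes picked the cells, so all these values are descriptions. Cells are not replicates and share plates and depth, so these values carry no p. Members with Cdsn were 6 of 14 at 0w, 15 of 32 at 1w, 14 of 17 at 8w and 19 of 27 at 9w. The 2 plates of 0w held 5 and 1 of them, so the plates of 1 group differed widely in this share.

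**Figure D3:**
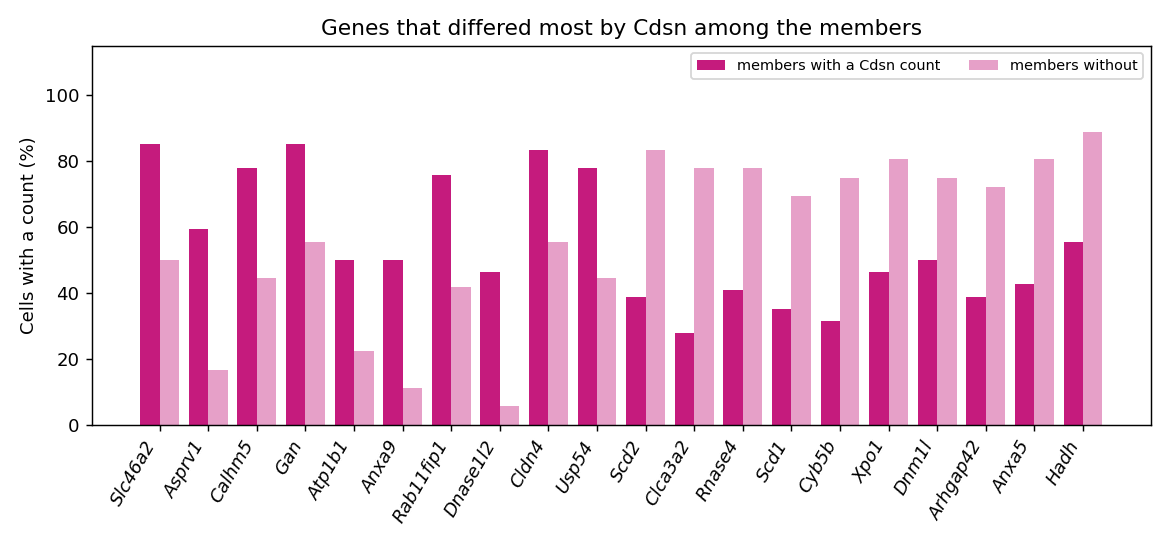
Percentage of members with a count for the 10 genes most raised and the 10 most lowered in members with Cdsn, in the 54 members with a Cdsn count (dark) and the 36 without (light). Slc46a2 was in 46 and 18 of these cells and Scd2 in 21 and 30.

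Members were found at every time point. They numbered 7 and 7 on the plates of 0w, 16 and 16 at 1w, 11 and 6 at 8w, and 17 and 10 at 9w. As shares of the plates these were 7.95% and 7.69% at 0w, 18% and 20.3% at 1w, 12.9% and 6.9% at 8w, and 19.8% and 11% at 9w. The exact binomial 95% interval over both plates ran from 4.34 to 12.8% at 0w, 13.4 to 25.8% at 1w, 5.86 to 15.4% at 8w and 10.3 to 21.4% at 9w, and covers counting error only. The 1w plates lay above both 0w plates, while 9w replicate 2 at 11% lay below 8w replicate 1 at 12.9%. Because the score picked the cells across all plates and its genes can shift with time, no test is given.

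The rule genes and duct genes were next read over time inside the members. In the sum of member counts, scaled by TMM, Krt79 was 9835 and 9350 CPM at 0w, 12767 and 11878 at 1w, 13110 and 17578 at 8w, and 8097 and 11896 at 9w, and the healing plates (1w and 9w) overlapped the resting plates (0w and 8w). Gata6 was 66.9 and 160 CPM at 0w, 61.9 and 87 at 1w, 133 and 220 at 8w, and 55 and 110 at 9w. Defb6 was 10134 and 20191 CPM at 0w, 30967 and 26587 at 1w, 26062 and 26528 at 8w, and 11128 and 4060 at 9w. None of the 7 duct genes outside the rule passed the edgeR test between healing and resting plates, and their median log2 difference was -0.28, beside 0.13 over all genes tested. The median of the 6 rule genes, which picked the cells and are given no test, was 0.12.

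**Figure D4:**
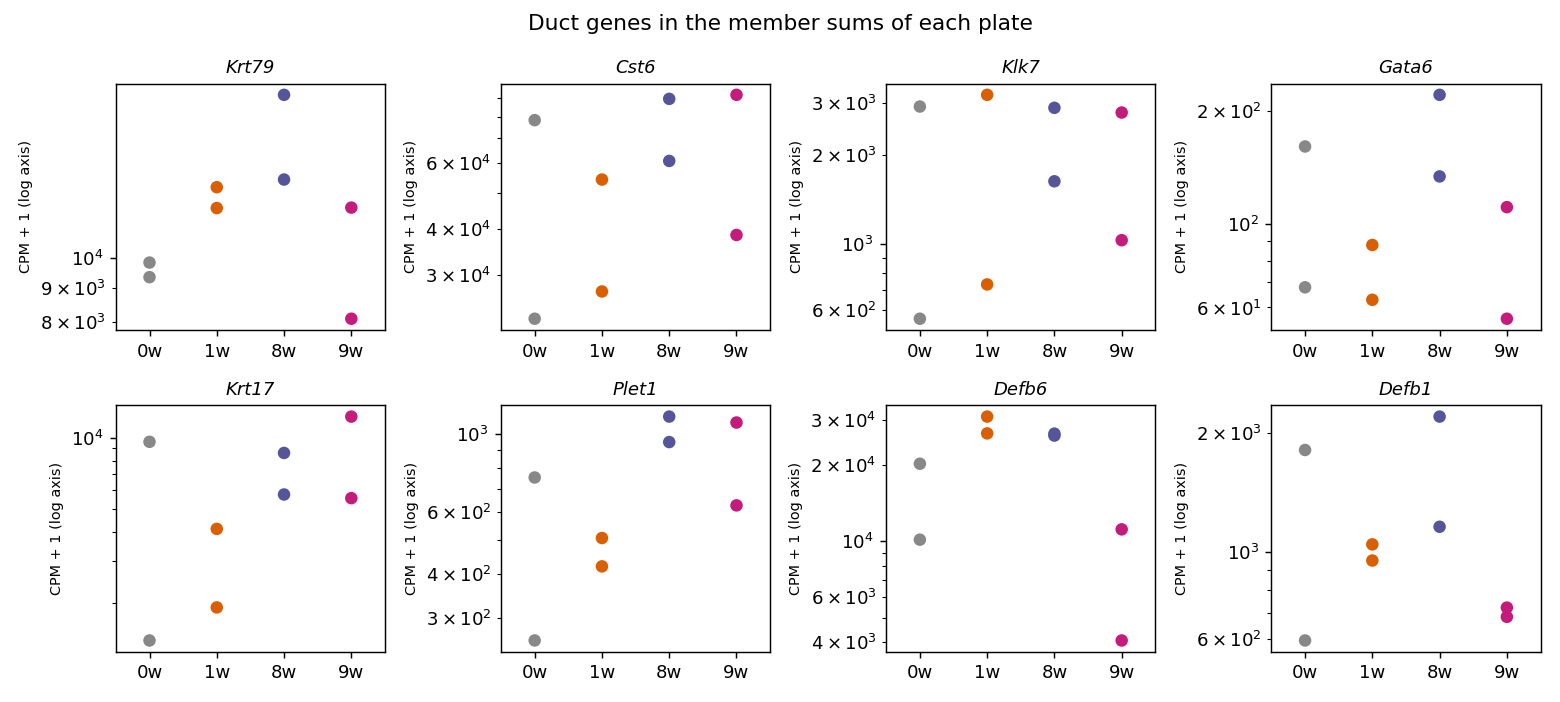
CPM + 1 (log axis) of duct genes in the sum of member counts of each plate, 2 plates per time point. Krt79 stays between 8097 and 17578 CPM on all 8 plates, and Defb6 ranges from 4060 to 30967 CPM.

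The question of change with healing was put to the sums of members per plate with edgeR's quasi-likelihood test. A call needed more than 2-fold change and an adjusted p (Benjamini-Hochberg) under 0.05, and 3 of 9270 genes were called between healing and resting plates (0.0324% of those tested), all higher in healing. These were Krt2, Gjb2 and Gm10719, a predicted gene model. A further count, 706 genes, had an unadjusted p below 0.05. Plates of the healing group lay wholly above those of the resting group for 2.96% of genes and wholly below for 1.24%.

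Krt2, a keratin of upper epidermal layers (chr15:101810689-101818169), was 1.08 and 0 CPM at 0w, 476 and 12613 at 1w, 0 and 0 at 8w, and 27.1 and 22 at 9w. The healing plates did not overlap the resting ones, and the plate 1w replicate 2 held most of the signal. Its log2 fold change was 11.15 ± 1.40 (SE) with an adjusted p of 0.0352 from edgeR, a fitted value that depends on the prior count since the resting members held 1 count. The ratio of the summed counts had a 95% interval from 4212 to 927076, for counting error only. A count was present in 15 of 59 healing members and 1 of 31 resting members, and 1 cell supplied 83, 100, 81 and 96% of the counts of the healing plates. In the other cells Krt2 was 2.07 and 10 CPM at 0w, 3979 and 7399 at 1w, 403 and 741 at 8w, and 1003 and 11133 at 9w.

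Gjb2 (connexin 26, a gap junction protein, chr14:57098600-57104702) was 0 and 0 CPM at 0w, 47.7 and 37.4 at 1w, 1.12 and 0 at 8w, and 78 and 554 at 9w. Its groups did not overlap, and its log2 fold change was 9.05 ± 1.23 (SE) with an adjusted p of 0.0492 by edgeR. The resting members held 2 counts, and the interval of the ratio ran from 94.1 to 2815. It had a count in 8 healing members and 1 resting member, and 1 cell supplied 100, 100, 57.5 and 99.7% of the counts of the healing plates. In the other cells Gjb2 was 79.4 and 85.8 CPM at 0w, 1313 and 344 at 1w, 29.9 and 14.9 at 8w, and 166 and 184 at 9w. When the deepest member cell of each plate was left out, an alternative chosen after seeing the data, 0 genes were called. The log2 fold changes were then 10.52 for Krt2, 7.40 for Gjb2 and 7.74 for Gm10719. Their adjusted p by edgeR were 0.098, 0.464 and 0.481. Gm10719 was 0 and 0 CPM at 0w, 435 and 85.6 at 1w, 33.6 and 13.3 at 8w, and 483 and 570 at 9w. Its log2 fold change was 8.25 ± 1.00 (SE), with an edgeR adjusted p of 0.0352. A count was present in 32 healing and 4 resting members. Of its counts on the healing plates, 1 cell supplied 35.1, 26.1, 88.8 and 99.1%. Other cells held 27.1 and 56.9 CPM at 0w, 181 and 109 at 1w, 25.5 and 4.32 at 8w, and 181 and 53.4 at 9w. The gene next in order, Stfa3, a stefin that inhibits cysteine proteases, had a log2 difference of 11.62. It was not called by edgeR (adjusted p 0.0625) but was called by DESeq2 (adjusted p 3.49e-12). Its plates read 0 and 0 CPM at 0w, 3253 and 57.1 at 1w, 0.56 and 0 at 8w, and 56.5 and 268 at 9w.

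Lower values in healing members were smaller and not called by edgeR. Ahr, the aryl hydrocarbon receptor, was 546 and 623 CPM at 0w, 109 and 163 at 1w, 350 and 260 at 8w, and 50.1 and 102 at 9w. Every healing plate lay below every resting plate, with a log2 difference of -2.05 ± 0.49 (SE) and an edgeR adjusted p of 0.332. In other cells of resting plates Ahr was 194 and 150 CPM at 0w and 136 and 107 at 8w. In those of healing plates it was 75.8 and 74.7 at 1w and 102 and 90.3 at 9w, also without overlap. In the edgeR interaction test described below, its difference was -1.31 with an adjusted p of 0.677. Cep97, a centrosomal protein, and Trpv2, a cation channel, had log2 differences of -2.18 and -2.21 with edgeR adjusted p of 0.46 and 0.487. DESeq2 called Ahr, at -2.09 with an adjusted p of 0.0181, but not Cep97 (0.0683) or Trpv2 (0.0547).

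Stress keratins, which epidermis makes after wounding, were followed in a list of 10 genes with alarmins, stefins, a serpin and interleukin-1 genes. By edgeR none was called between healing and resting plates, while DESeq2 called Stfa3 (adjusted p 3.49e-12). Krt6b, Stfa1 and Stfa3, 3 of the 10 genes, had healing plates wholly above the resting ones, beside 2.96% of all genes tested. The plates of Krt6a and Krt16 overlapped. The median log2 difference of the whole list was 8.25 beside 0.13 over all genes, a value set by genes at 0 in resting plates. Krt6a was 31.3 and 8.58 CPM at 0w, 909 and 74.9 at 1w, 546 and 78.7 at 8w, and 2270 and 1359 at 9w. Both 0w plates were the lowest of the 8 and both 9w plates the highest. A Krt6a count was present in 2 of 14 members at 0w, 22 of 32 at 1w, 6 of 17 at 8w and 19 of 27 at 9w, and after thinning in 2, 15, 5 and 17. Krt16 was 0 and 2.14 CPM at 0w, 108 and 13.7 at 1w, 54.9 and 252 at 8w, and 365 and 645 at 9w, in the same order of extremes. On the 8w plates 1 cell supplied 74.6 and 94% of the Krt16 counts and 66.4 and 98.3% of the Krt6a counts. At 9w these shares were 41.1 and 37.2% for Krt16 and 21 and 70.6% for Krt6a. Against 0w, the log2 difference of Krt16 was 5.58 at 1w, 6.91 at 8w and 8.64 at 9w, with edgeR adjusted p of 0.851, 0.611 and 0.454. The 3 comparisons share the 0w plates. In other cells a Krt6a count was present in 29.7% at 0w, 65.4% at 1w, 43.9% at 8w and 53.3% at 9w. Their Krt6a level was 49.6 and 53.3 CPM at 0w and 6348 and 3975 at 1w. It was 294 and 352 CPM at 8w and 753 and 1176 at 9w. The other cells were thus also lowest at 0w, but highest at 1w.

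Of the spinous keratins, Krt10 was highest at 1w. It was 2470 and 4532 CPM at 0w, 14599 and 22821 at 1w, 2728 and 4557 at 8w, and 6153 and 5205 at 9w. Healing plates lay above the resting plates, but the log2 difference of 1.53 ± 0.39 (SE) had an edgeR adjusted p of 0.39. Of the Krt10 counts on the healing plates, 1 cell supplied 36.1, 67.5, 25.9 and 69.4%. Krt1, its usual partner, was 0 and 20 CPM at 0w, 1324 and 464 at 1w, 28 and 0 at 8w, and 171 and 1210 at 9w, with an adjusted p of 0.215.

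Single time points gave no calls. By edgeR, 0 of 9270 genes (0%) were called at 1w against 0w, at 8w against 0w, at 9w against 0w and at 9w against 1w, while 525, 749, 584 and 278 genes had p under 0.05 before adjustment. In the same order, 43, 126, 83 and 14 genes were called by DESeq2. The gene with the lowest p by edgeR was Krt2 at 1w against 0w (adjusted p 0.114), Tasor2 at 8w against 0w (0.611), Gm10719 at 9w against 0w (0.117), followed there by Gjb2 (0.353), and Krt2 at 9w against 1w (1).

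**Figure D5:**
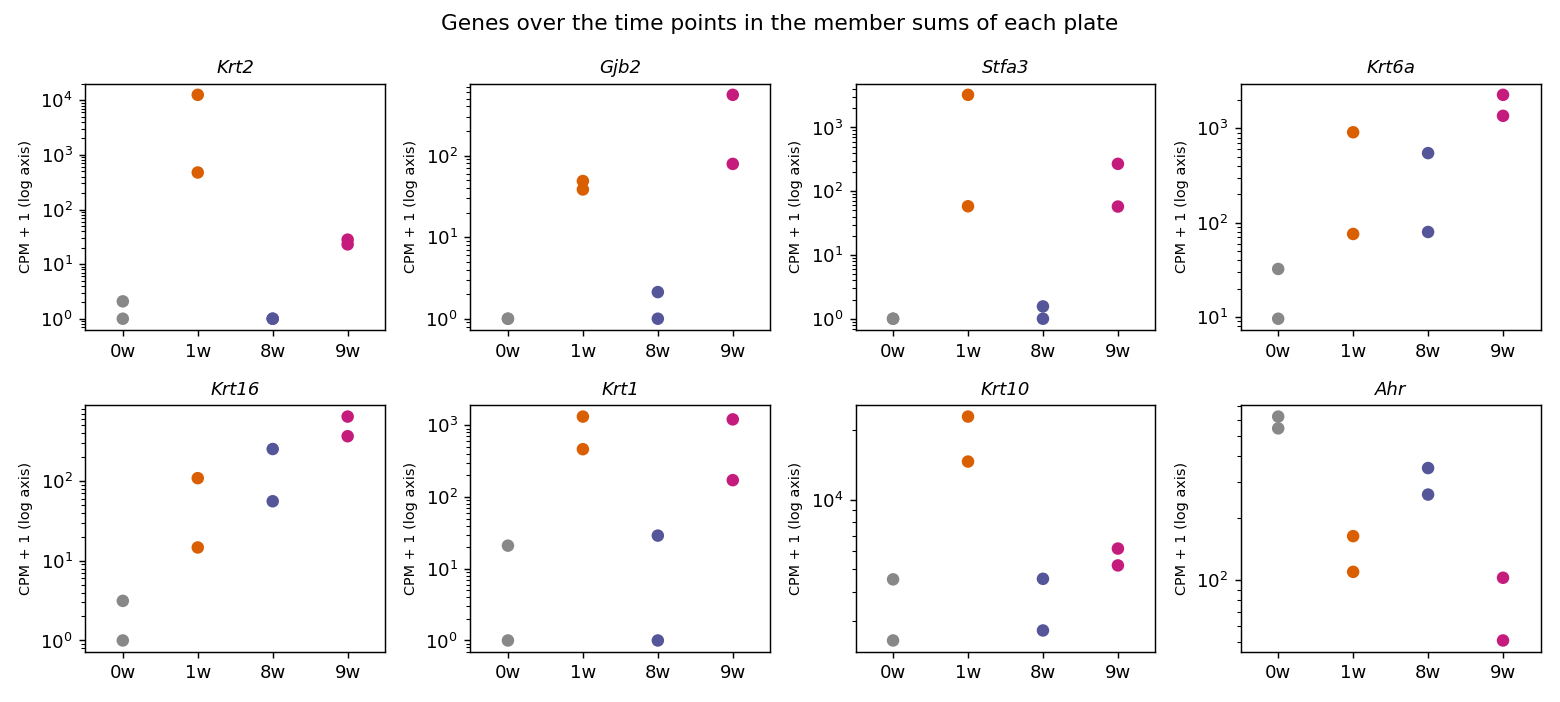
CPM + 1 (log axis) of 8 genes in the sum of member counts of each plate, 2 plates per time point. Krt2 and Gjb2 are at or near 0 CPM on the 4 resting plates, Krt6a and Krt16 are highest on the 9w plates at up to 2270 and 645 CPM, and Ahr is highest at 0w.

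Whether members moved as the other cells did was tested as an interaction with the plate as a block. By edgeR, 1 of 13254 genes (0.00754%) was called, Postn (periostin, a secreted matrix protein, chr3:54361109-54391037), and 887 had an unadjusted p below 0.05. In other cells Postn was 1250 and 458 CPM at 0w, 105 and 155 at 1w, 812 and 322 at 8w, and 164 and 297 at 9w. In members it was 1.11 and 0 CPM at 0w, 3.67 and 7.25 at 1w, 0 and 0 at 8w, and 10.2 and 40.6 at 9w. Healing plates were thus lower in other cells and higher in members. In the members alone the log2 difference of Postn was 5.96 and was not called (edgeR adjusted p 0.462). The difference of the changes was 9.13 ± 1.07 (SE) on the log2 scale with an adjusted p of 0.00322. It rests on 9 members with a count, 8 of them in healing plates, against 273 other cells. In members, 1 cell supplied 87.5, 82.8, 80.8 and 95.2% of the counts of the healing plates. The size of the difference depends on the prior count because resting members held 1 count. Its adjusted p was 1 with members ranked within plates.

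Among genes not called by edgeR in the same comparison, Ccnd1 (cyclin D1) and Cav1 (caveolin 1) had positive differences of 8.15 and 7.19. Tprg, Calm4 and Dsg1a had negative ones of -3.60, -2.79 and -2.13. All had an edgeR adjusted p of 0.0735. DESeq2 gave Calm4 and Dsg1a adjusted p of 0.00512 and 0.0039. Cav1 was 0 to 99.3 CPM in members of all plates and 160 to 594 CPM in other cells. Tprg was 222 to 902 CPM in members, but 5.69 to 20.3 CPM in other cells of resting plates and 58.7 to 163 in those of healing plates. Dsg1a was 2416 to 5592 CPM in members of all plates, but 407 to 977 CPM in other cells of resting plates and 1509 to 2518 in those of healing plates. Krt16 had a difference of -3.89 and an adjusted p of 0.214, and in other cells ran from 0.745 and 1.49 CPM at 0w to 2695 and 2195 at 1w.

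Depth bounds these values. The members had a median of 151795 counts and 4666 genes, and the others 129350 and 4413. The median mitochondrial share was 14.1% in members and 22% in other cells. In members it was 18% at 0w, 17.4% at 1w, 11.8% at 8w and 10.5% at 9w. The plates of 0w differed widely, at 8.46% and 22.1%. What part this share has in the results was not tested. Member sums per plate ran from 771850 to 4430805 counts, and the deepest cell gave from 10.7 to 46.4% of a plate's sum. Thinned to equal depth, the median number of genes per member averaged 2720 on healing and 2644 on resting plates (exact permutation test over plates, two-sided, p = 0.286).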

How the data were processed

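Full-length Smart-seq2 libraries without molecular identifiers were made from single sorted Lrig1 GL cells on 8 plates. Per the submitters' processing notes, the authors quantified reads with Salmon 0.13.1 on a mouse transcriptome (mm10, GRCm38), and they deposited expected counts per gene and cell, not normalised. The study's methods state filters on genes per cell, mitochondrial share and rarely seen genes. The table has 15652 genes, and 0 of its 696 cell columns lacked a sample. Cells were scored as the report describes. Counts of the members were summed per plate, rounded and fitted with edgeR 4.0.16 (TMM, default filter on low counts, quasi-likelihood) in R 4.3.3 over all 8 plates, with the time point as term. The biological coefficient of variation was 0.868 with 4 residual degrees of freedom. Because plates and not cells are the samples, cells were never tested singly. The interaction was fitted on sums of members and of other cells with the plate as a block. Levels in CPM are scaled by TMM, and those given beside other cells come from the joint scaling, so they differ slightly. The genes named were those of the rule, of gene lists, the 20 leading and 10 lowest within plates, and per comparison the called genes and, where fewer than 5 were called, the 3 with the lowest p in each direction whose plates did not overlap. The members and lists were chosen with earlier results of these data known. DESeq2 1.42.0, other filters, numbers of members, scalings and scores, and leaving out each plate were tried as alternatives. Doublets were not called, since each well was sorted as 1 cell.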

Additional observations from a re-analysis of the deposited data

Results flagged for a closer look

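Postn changed differently between resting and healing plates in the members and in the other cells, with a log2 difference of 9.13 between the 2 changes by the edgeR interaction test. It was called in 14 of 17 alternatives, and its log2 difference ran from 0.08 to 11.15 over them. Its adjusted p was 1 with members ranked within plates, 0.643 with the 120 highest scores and 0.0533 with the score on thinned counts. Groups of 2 plates are too small for a search for single plates that stand apart.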

How the results depend on the processing

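Between healing and resting plates, where 3 genes were called, DESeq2 called 92, no filter on low counts 108, the 60 highest scores 14, members ranked within plates 5, every cell scaled equally 6, the score on thinned counts 1 and the sums without the deepest member cell 0; leaving out 1 plate gave 0 to 25, with 0 without 0w replicate 2, 8w replicate 1 or 8w replicate 2. For the interaction, where 1 gene was called, the same settings gave 284, 118, 122, 3, 54, 1 and 16, and leaving out 1 plate 2 to 66. At 1w against 0w, where edgeR called 0, DESeq2 called 43 and no filter 50, and leaving out 1 plate gave 0 to 7. At 8w against 0w these were 126, 66 and 0, with 1 for the 60 highest scores. At 9w against 0w they were 83, 71 and 0 to 12, and at 9w against 1w 14, 21 and 0 to 2, with 1 for the 60 highest scores. The cause of these differences was not tested. Krt2 was called in 13 of 18 alternatives, Gjb2 in 10 and Gm10719 in 11, each higher in healing members in all 18, with log2 fold changes of 8.74 to 12.80, 7.40 to 10.90 and 2.62 to 8.91.

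Plates with the same replicate number did not deviate together in every pair of time points (correlations 0.0291 to 0.118), so the replicate block is only an alternative. With the replicate block, 2 genes were called at 9w against 0w and 2 between healing and resting plates. With the 60 highest scores the log2 difference turned to 1.07 for Afap1l2 (1w against 0w), 0.00 for Tasor2 (8w against 0w) and 4.92 for Rnf43 (9w against 0w), none of them called in the main analysis. With the 60 or 120 highest scores, the score on thinned counts and the scores without Krt79 or without Rptn, 14 to 18 of the 20 leading genes were shared and 65.6 to 68.3% of members came from healing plates. Ranking within plates fixes the share of each plate and was not read for these values. The sums rest on few members per plate, and the deepest cell gave from 10.7 to 46.4% of a plate's sum.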
